A study of Mus musculus with 8 samples.

Results

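The cyclins and the CDK inhibitors of the Cip/Kip family were followed through kidney development in mouse embryos with and without nephrons. The genes asked for were Ccna2, Ccnb1, Ccnb2, Ccnd1, Ccnd2, Ccnd3, Ccne1, Cdkn1a, Cdkn1b and Cdkn1c, and every probe set of the array that the platform table gives to exactly 1 of these genes was taken, whatever its signal. This gave 23 of 45101 probe sets, for 9 of 18194 named genes, because no probe set with Ccnb1 as its single gene was among them. Ccnd2 had 7 probe sets, Ccnd1 and Ccnd3 had 3 each, Ccna2, Ccne1, Cdkn1a and Cdkn1b had 2 each, and Ccnb2 and Cdkn1c had 1 each. Probe sets of 1 gene read overlapping or neighbouring parts of its transcripts and are not independent of each other.

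RNA came from whole kidneys of embryos on day 14.5 of gestation, called E14.5, or on day 18.5, called E18.5, and 1 pool was made for each stage and genotype. The conditional mutants were Lim1 flox/lacZ with the Rarb2-Cre transgene, in which Cre acts in the metanephric mesenchyme, the tissue that forms the nephrons, and the lacZ allele is null in every cell. The controls were Lim1 flox/+ with the same transgene, so they also carried Cre and, where it acted, had 1 working Lim1 allele. The pools held the kidneys of 23 control and 17 mutant embryos at E14.5 and of 14 control and 9 mutant embryos at E18.5, on a mixed strain background. Each pool was measured on 2 arrays from separate target preparations of the same RNA, so the spread between duplicates is technical. A comparison of 1 pool with another therefore has no p-value, and ranges over array pairings show technical error only.

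Cyclins bind cyclin-dependent kinases (CDKs) and switch them on. The D cyclins act in G1 with Cdk4 and Cdk6 and link growth signals to the cell cycle, cyclin E1 acts with Cdk2 at entry into S phase, cyclin A2 acts in S phase and G2, and cyclins B1 and B2 act with Cdk1 at mitosis. Cdkn1a (p21), Cdkn1b (p27) and Cdkn1c (p57) bind cyclin-CDK complexes and restrain them, and p21 is a classic target of p53. In the developing kidney the dividing cells lie mainly at the outer edge, in nephron progenitors, ureteric bud tips and stroma, and Cdkn1c is known from differentiating podocytes and medullary stroma.

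Array medians were between 225 and 243 signal units. The E18.5 mutant duplicates stood apart most, with a median fold between arrays of 1.16 over all probe sets against 1.08 to 1.11 in the other pools, and 16 of the 23 probe sets read higher on array 2. The targeted gene, Lhx1 (the current name of Lim1), did not read the same way on its 2 probe sets: probe set 1421951_at read 388 and 365 in E14.5 controls against 323 and 289.8 in E14.5 mutants, and 342 and 382 in E18.5 controls against 459 and 379 in E18.5 mutants. Probe set 1450428_at read 449 and 517, 563 and 554, 369.9 and 352, and 296 and 333 in the same order. The first was lower in mutants without overlap at E14.5 (control over mutant 1.23-fold, range 1.13 to 1.34), the second at E18.5 (1.15-fold, range 1.06 to 1.25). The second was higher in mutants without overlap at E14.5 (control over mutant 0.865-fold, range 0.798 to 0.934), and the first overlapped at E18.5. Whether these probes lie inside the deleted part is not given in the sources used here, so they do not check the labels. The summed signal of 10 proximal tubule markers was 25655 and 26534 in E18.5 controls and between 1423 and 2136 on the other arrays.

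Promoter sequence was at hand for 6 of the 10 genes, in RefSeq windows of build GRCm38.p6, and not for Ccna2, Ccnd1, Ccnd2 and Cdkn1c. Shown here are the 250 bases before the start of Ccnb2, a mitotic cyclin that fell between the stages, and before the starts of both Cdkn1a transcripts, the inhibitor that rose. In the Ccnb2 window, on the minus strand at chr9:70421555-70421804, capitals mark CCAAT, the letters of the CCAAT box, and TTTGAA, those of the CHR element core. Both elements are known from promoters of G2 and mitosis genes. In the first Cdkn1a window, on the plus strand at chr17:29090729-29090978, they mark the core of a p53 double half-site, searched as 2 copies of CATG with 6 bases of any kind between them. In the second Cdkn1a window, on the plus strand at chr17:29093519-29093768, they mark GC boxes (GGGCGG) and TATAA.
Ccnb2: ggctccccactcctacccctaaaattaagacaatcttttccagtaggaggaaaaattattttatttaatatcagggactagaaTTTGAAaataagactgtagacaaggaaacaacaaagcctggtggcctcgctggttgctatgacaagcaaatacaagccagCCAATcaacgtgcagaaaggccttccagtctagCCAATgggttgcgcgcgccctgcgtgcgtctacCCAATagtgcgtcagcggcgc
Cdkn1a, first start: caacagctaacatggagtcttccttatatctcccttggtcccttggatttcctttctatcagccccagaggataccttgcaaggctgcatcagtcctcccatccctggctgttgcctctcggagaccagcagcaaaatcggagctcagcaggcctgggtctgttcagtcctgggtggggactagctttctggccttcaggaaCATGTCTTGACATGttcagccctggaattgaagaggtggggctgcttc
Cdkn1a, second start: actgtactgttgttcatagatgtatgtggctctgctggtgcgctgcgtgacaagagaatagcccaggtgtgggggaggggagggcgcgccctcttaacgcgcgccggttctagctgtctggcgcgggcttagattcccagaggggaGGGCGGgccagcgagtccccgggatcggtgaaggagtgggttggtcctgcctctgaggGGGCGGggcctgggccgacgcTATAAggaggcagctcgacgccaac

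The Ccnb2 window holds 3 CCAAT boxes, whose first bases lie 87, 54 and 21 bases before the start, and 1 TTTGAA at 167 bases. The TTTGAA lies farther from the start than all 3 CCAAT boxes, and whether it works as a CHR element was not tested. Counting matches on both strands, 33.8% of the 32851 windows of this length held at least 1 CCAAT, 2.79% held at least 3, 16.0% held TTTGAA, and 0.381% held TTTGAA with at least 3 CCAAT. The threshold of 3 is the count of the Ccnb2 window itself, and order and spacing were ignored. The shares that use it therefore only describe that window. The Ccnb1 and Cdkn1b windows held 2 CCAAT each. The p53 core begins 48 bases before the first Cdkn1a start, and 0.490% of all windows held it. GGGCGG, with 2 matches before the second Cdkn1a start, was in 32.7% of windows, and TATAA, 25 bases before that start, in 22.8%. The first Cdkn1a window also held 1 TATAA match, on the other strand, which is not marked. These matches are letters in a window and no measurement of binding.

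Ccna2 and Ccnb2, cyclins of S phase, G2 and mitosis, fell between E14.5 and E18.5 in both genotypes, but neither met the criteria of size given below. For Ccna2, probe set 1417910_at read 2064 and 2286 in E14.5 controls, 2110.3 and 2238 in E14.5 mutants, 1253 and 1325 in E18.5 controls, and 1235 and 1493 in E18.5 mutants. All 4 arrays of E14.5 were above all 4 of E18.5. The signal was 1.69-fold lower at E18.5 in controls, with a range of 1.56 to 1.82 over the 4 pairings of arrays, and 1.59-fold lower in mutants, with a range of 1.41 to 1.81. The second Ccna2 probe set, 1417911_at, was lower by 1.59-fold in controls and 1.59-fold in mutants. Ccnb2, read by 1450920_at, had 1241 and 1439.8, 1453 and 1485, 729 and 817, and 693 and 948 in the same order of pools. It was 1.73-fold lower at E18.5 in controls (range 1.52 to 1.97) and 1.79-fold lower in mutants (range 1.53 to 2.14), again with no overlap between the stages. A stage effect common to both genotypes, fitted with limma on the 4 pool means with Benjamini-Hochberg adjustment over 27061 probe sets, was -0.72 ± 0.11 (SE, log2) for 1417910_at with adjusted p = 0.0327, -0.67 ± 0.11 for 1417911_at with adjusted p = 0.0359, and -0.82 ± 0.11 for Ccnb2 with adjusted p = 0.0254. This fit has 1 residual degree of freedom. Without E18.5 control array 2 the adjusted p rose above 0.05 for both Ccna2 probe sets, with 0.0528 as the highest value for 1417910_at, and 1417911_at was also lost with equal array medians or without E14.5 mutant array 1, with 0.0583 as its highest.

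In bulk tissue, fewer cells of a type and less RNA per cell cannot be told apart. Transcripts of other cells moved with stage. The summed signal of the 4 measured erythroid genes was between 7939 and 9322 at E14.5 and between 806 and 903 at E18.5, and this was carried by the embryonic globins Hbb-y and Hba-x, whose limma stage effects were -8.19 and -2.94 with adjusted p = 0.000252 and 0.0150, and which were under the 40th percentile on all E18.5 arrays. The other 2, Alas2 and Epb42, had 0.22 ± 0.12 (adjusted p = 0.288) and -0.18 ± 0.11 (adjusted p = 0.377). The sum of the 8 nephron progenitor markers was 6458 and 7261 in E14.5 controls and 4114 and 4312 in E18.5 controls, and 8349 and 7865 in E14.5 mutants and 6389 and 7372 in E18.5 mutants. Of the 7 progenitor markers tested with limma, 1 was lower at E18.5 and 0 were higher, beside 4.02% and 3.62% of all genes. The 1 was Six2, at -0.83 with adjusted p = 0.0451, while Cited1 and Meox1 had positive stage effects, 0.29 and 0.13. The list median of the log2 stage ratio was -0.40 in controls and -0.09 in mutants. The part of either list in the fall of the cyclins was not tested.

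Ccnd2, a D cyclin that responds to growth signals, was lower at E18.5 on all 7 of its probe sets in both genotypes, also after quantile normalization and with equal array medians. The brightest, 1434745_at, read 3291 and 3231 in E14.5 controls, 3603 and 4257 in E14.5 mutants, 1426 and 1385 in E18.5 controls, and 1742 and 2398 in E18.5 mutants. The most changed, 1448229_s_at, read 1172 and 1139.6, 1374 and 1435, 242 and 215, and 400.4 and 322 in that order. In each of these probe sets every E14.5 array was above every E18.5 array. In controls the difference ranged from 2.32-fold (1434745_at, range 2.27 to 2.38) to 5.06-fold (1448229_s_at, range 4.71 to 5.46). In mutants it ranged from 1.10-fold (1416124_at, whose stages overlapped, range 0.948 to 1.29) to 3.89-fold (1448229_s_at, range 3.43 to 4.46). The limma stage effect passed for 5 of the 6 probe sets tested, from -1.08 ± 0.13 (1434745_at, adjusted p = 0.0211) to -2.15 ± 0.14 (1448229_s_at, adjusted p = 0.0150), and 1416124_at had -0.68 ± 0.27 with adjusted p = 0.182. Probe set 1416123_at was too low to be tested, with all 4 E18.5 arrays under the 40th percentile, and 1416124_at was under it on both E18.5 control arrays. Probe sets with the suffix _s_at or _x_at may also bind transcripts of other genes.

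The 3 probe sets of Ccnd1, a target of several growth pathways, did not change alike. Probe set 1417419_at read 3056 and 3119.6 in E14.5 controls, 1907 and 1804 in E14.5 mutants, 403 and 316 in E18.5 controls, and 631 and 366 in E18.5 mutants. This was 8.59-fold lower at E18.5 in controls (range 7.58 to 9.87) and 3.72-fold lower in mutants (range 2.86 to 5.21), and limma gave -2.53 ± 0.29 with adjusted p = 0.0202. The brightest, 1417420_at, read 3572 and 3866, 3267 and 3157, 2251 and 2193, and 2455 and 2183, which was 1.67-fold lower at E18.5 in controls and 1.39-fold lower in mutants, with -0.61 ± 0.13 and adjusted p = 0.0553. Probe set 1448698_at read 2365 and 2346, 2344 and 2503, 2716 and 2652, and 2624 and 2972, which was 1.14-fold and 1.15-fold higher at E18.5, with 0.20 ± 0.11 and adjusted p = 0.329. Within an array, the ratio of 1417419_at to 1417420_at was 0.856 and 0.807 in E14.5 controls, 0.584 and 0.571 in E14.5 mutants, 0.179 and 0.144 in E18.5 controls, and 0.257 and 0.168 in E18.5 mutants. The size and the direction of any change of Ccnd1 therefore depended on the probe set, and which transcripts each one reads was not analysed here.

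Ccnd3, the D cyclin known from differentiating cells, was higher in E18.5 than in E14.5 controls on 1 of its 3 probe sets. Probe set 1415907_at read 780.0 and 729.9 in E14.5 controls, 1152 and 1172 in E14.5 mutants, 1509.7 and 1514 in E18.5 controls, and 1249 and 1558 in E18.5 mutants. The E14.5 control pool was the low one, and the other 6 arrays lay between 1152 and 1558. Signal was 2.00-fold higher at E18.5 in controls (range 1.94 to 2.07), which met the criteria of size given below, and 1.21-fold higher in mutants (range 1.07 to 1.35), while the common stage effect, 0.63 ± 0.20, had adjusted p = 0.126. Probe set 1444323_at showed no change beyond its duplicates, which differed by 2.02-fold in the E14.5 mutant pool alone. Probe set 1438805_at read between 142 and 191 on the 8 arrays. It reached the 40th percentile on only 1 of them, so it gave no measure of change.

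Ccne1 on 1416492_at read 408 and 350.3 in E14.5 controls, 483 and 544 in E14.5 mutants, 279 and 264 in E18.5 controls, and 284 and 305 in E18.5 mutants. That is 1.40-fold lower in controls and 1.75-fold lower in mutants, with a limma effect of -0.64 ± 0.13 and adjusted p = 0.0553, so the call was not made. The brighter Ccne1 probe set, 1441910_x_at, read 1.10-fold higher in controls (range 0.983 to 1.25) and 1.38-fold higher in mutants (range 1.16 to 1.61), with adjusted p = 0.221. The direction of Ccne1 was thus not the same on its probe sets.

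Among the inhibitors, Cdkn1a rose. Probe set 1424638_at read 281 and 264 in E14.5 controls, 284 and 275 in E14.5 mutants, 742 and 729 in E18.5 controls, and 506 and 614 in E18.5 mutants. The stages did not overlap, and within E18.5 both control arrays were above both mutant arrays. The rise was 2.70-fold in controls (range 2.59 to 2.81) and 2.01-fold in mutants (range 1.78 to 2.23), and limma gave 1.21 ± 0.15 with adjusted p = 0.0223. The dimmer probe set, 1421679_a_at, read 191 and 172, 176 and 163, 314 and 326, and 206 and 252. All 4 E14.5 arrays were under the 40th percentile, so no fold between stages is given for it, and its limma effect, 0.62 ± 0.14, had adjusted p = 0.0663.

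Neither Cdkn1b nor Cdkn1c met the size criteria or passed limma on the 4 pool means. Cdkn1b on 1434045_at read 530.5 and 714, 561 and 391, 793 and 837, and 624 and 796, which was 1.31-fold higher at E18.5 in controls (range 1.11 to 1.58) and 1.49-fold higher in mutants (range 1.11 to 2.03), with adjusted p = 0.0731. It passed without E18.5 mutant array 1 and in the fits over 8 arrays (adjusted p = 0.0225 and 0.0449), in which duplicates count almost as replicates. The fits over 8 arrays called 4623 and 3960 of 27061 probe sets higher at E18.5, against 926 in the fit on pool means. No rise of Cdkn1b is read from these passes. Over all alternatives its adjusted p ran from 0.0225 to 0.189. Its second probe set, 1419497_at, read between 45.2 and 54.9 and was under the 40th percentile on all 8 arrays, so it gave no measure of change. Cdkn1c, the maternally expressed inhibitor of an imprinted domain, read 5313 and 4549, 4762 and 4981, 4644 and 4542, and 5397 and 5268. It was 1.07-fold lower at E18.5 in controls (range 0.979 to 1.17) and 1.09-fold higher in mutants (range 1.06 to 1.13), with a limma effect of 0.02 ± 0.12 and adjusted p = 0.950.

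**Figure D1:**
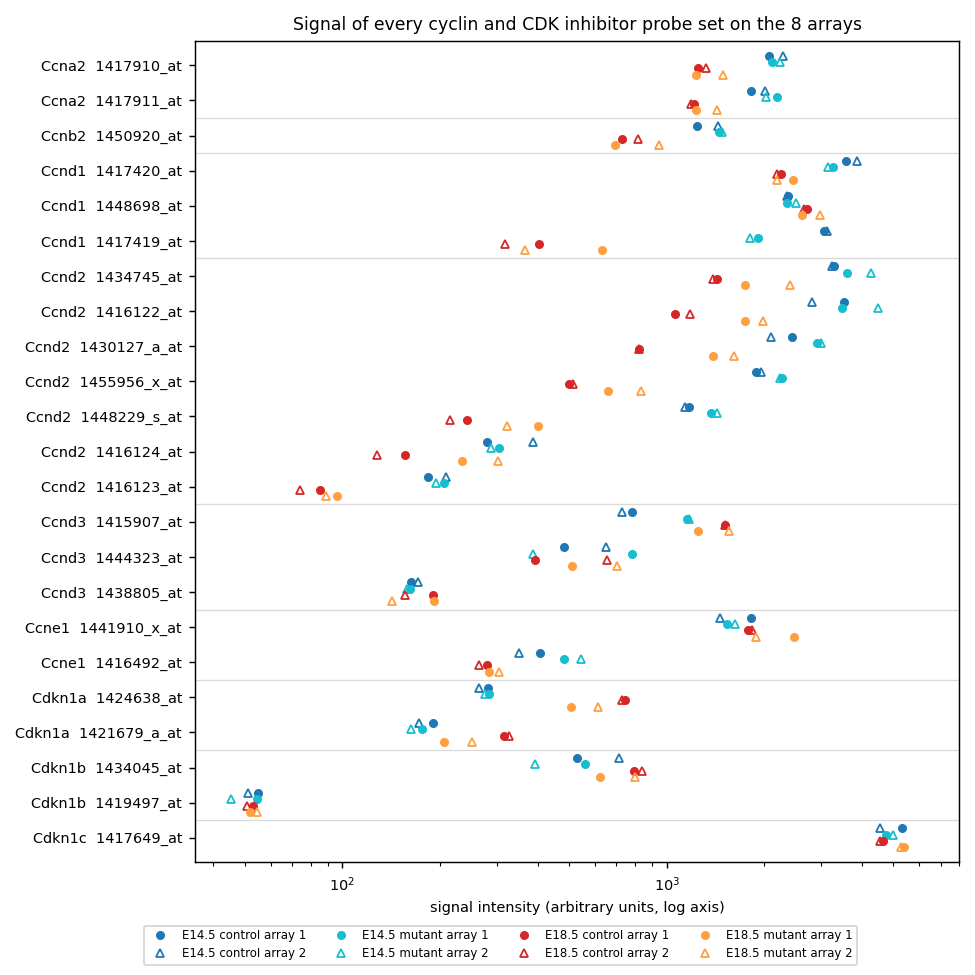
Signal intensity (log axis, arbitrary units) of the 23 probe sets on each of the 8 arrays, with colours for the 4 pools and filled circles and open triangles for arrays 1 and 2. The E18.5 points of Ccna2, Ccnb2 and most Ccnd2 probe sets lie to the left of the E14.5 points, those of Cdkn1a lie to the right, and Cdkn1c stays between 4542 and 5397.

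By the criteria of size, 7 probe sets fell and 2 rose from E14.5 to E18.5 in controls. These asked for a ratio of duplicate means of at least 2 that exceeded the fold between duplicates of either pool, a higher mean times the ratio above 100, and both arrays of the higher pool at or above their 40th percentile. The 7 lower were 6 of Ccnd2, of which 1416124_at had E18.5 arrays under that percentile, and 1417419_at of Ccnd1, beside 1.85% of all probe sets, and the 2 higher were 1415907_at of Ccnd3 and 1424638_at of Cdkn1a, beside 2.55%. In the mutants 5 were lower, 4 of Ccnd2, with 1416123_at under that percentile at E18.5, and 1417419_at of Ccnd1, beside 0.889% of all, and 1 was higher, 1424638_at of Cdkn1a, beside 0.721%. The Ccnd3 call in controls and the Cdkn1a call in mutants were at the edge of the threshold: the first, 2.00-fold, was lost without array 2 of either control pool, and the second, 2.01-fold, without array 2 of either mutant pool. Arrays of the stages did not overlap for 13 lower and 5 higher probe sets in controls, beside 36.0% and 26.5% of all, and for 12 lower and 7 higher in mutants, beside 23.9% and 26.0%.

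With limma, 9 of the 20 probe sets tested were lower at E18.5 and 1 was higher, against 5.20% and 3.42% of all those tested. The 9 belonged to Ccna2, Ccnb2, Ccnd1 and Ccnd2, 5 of them to Ccnd2 alone, and the 1 to Cdkn1a. Between stages the median log2 ratio was -0.67 over the 23 probe sets and -0.06 over all probe sets in controls, and -0.47 and 0.01 in mutants.

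**Figure D2:**
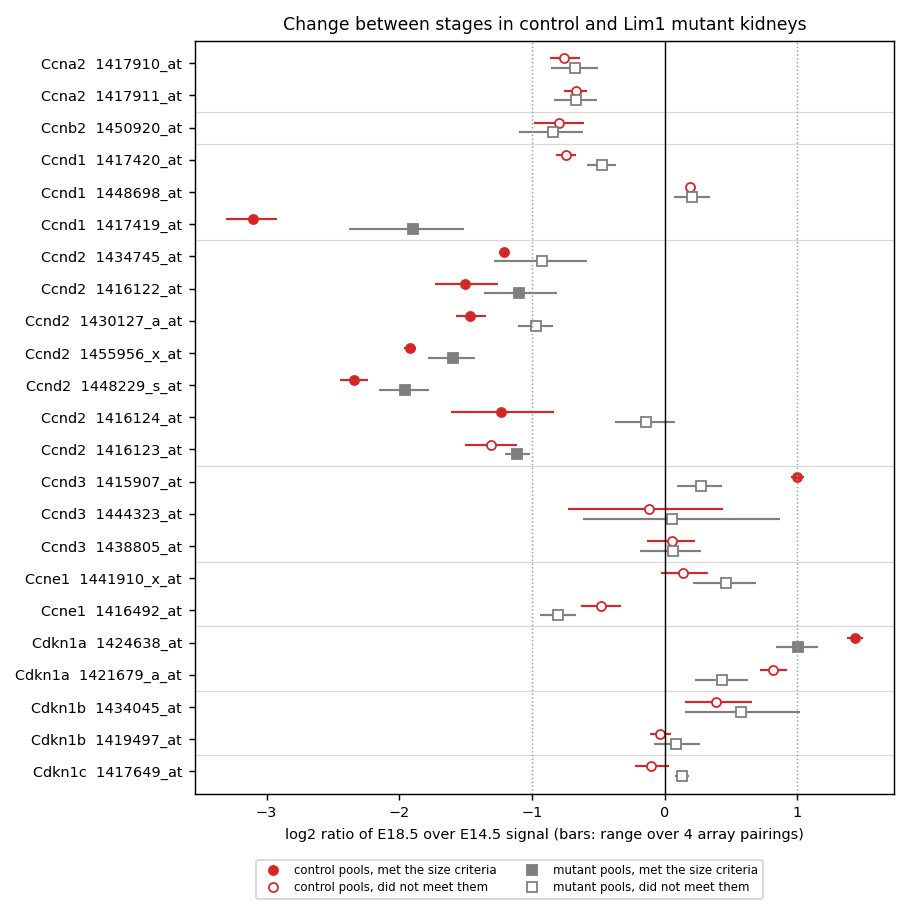
Log2 E18.5/E14.5 signal ratio for each probe set in control pools (circles) and mutant pools (squares), filled where the size criteria were met. Bars give the range over the 4 array pairings, and the dotted lines mark a 2-fold difference. The control value of 1417419_at of Ccnd1 lies farthest left at -3.10, and that of 1424638_at of Cdkn1a farthest right at 1.43.

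The stage change in controls was set against that in mutants. With 1 pool per condition this difference has no test, and its range over the 16 combinations of arrays shows technical spread only. The share of all probe sets whose range excluded 0 was not computed, so such ranges are not read as particular to these genes. For Ccnd1 on 1417419_at the controls fell by 1.21 log2 units more than the mutants (range -1.79 to -0.54, controls minus mutants). For the 5 Ccnd2 probe sets above the 40th percentile on all arrays the difference lay between -0.29 and -0.49, and for 3 of them the range excluded 0. For Ccnd3 on 1415907_at the change in controls was higher by 0.73 (range 0.52 to 0.96). For Cdkn1a it was higher by 0.43 on 1424638_at (range 0.21 to 0.66). Ccne1 on 1416492_at went the other way from Ccnd1 and Ccnd2, with controls minus mutants at 0.32 (range 0.04 to 0.61), while 1417420_at of Ccnd1 was at -0.27 (range -0.46 to -0.08) and Cdkn1c at -0.23 (range -0.41 to -0.05). Ccna2 and Ccnb2 had ranges on both sides of 0, of -0.37 to 0.22 on 1417910_at and -0.37 to 0.50 for Ccnb2. The limma fit assumes the same stage change in both genotypes, and 1417419_at of Ccnd1, 1415907_at of Ccnd3, 1424638_at of Cdkn1a and 3 of these Ccnd2 probe sets had ranges that excluded 0. The range of the brightest Ccnd2 probe set, 1434745_at, was -0.66 to 0.11.

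None of the 23 probe sets met the size criteria between genotypes in either direction. At E18.5 the criteria were met by 1.27% of all probe sets for higher in control and 0.0931% for higher in mutant, and at E14.5 by 0.0732% and 0.00222%. In limma 0 probe sets of all those tested differed by genotype, or 0%. At an unadjusted p under 0.05, 5 of the 20 did, against 3.86% of all, and these were 5 Ccnd2 probe sets, all higher in mutants.

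The genotype difference that recurred was that of Ccnd2 at E18.5. The 5 probe sets that were above the 40th percentile on all 8 arrays read higher on both mutant arrays than on both control arrays, and the direction held with quantile normalization and with equal array medians. These 5 probe sets of 1 gene are not independent of each other. Probe set 1430127_a_at read 821 and 823 in E18.5 controls against 1387 and 1617 in E18.5 mutants, which was 1.83-fold higher in mutants (range 1.69 to 1.97). Probe set 1416122_at read 1057 and 1177 against 1745 and 1983, or 1.67-fold higher (range 1.48 to 1.88). The other 3 of these were 1.47-fold (1434745_at and 1455956_x_at) and 1.58-fold (1448229_s_at) higher. Probe set 1416124_at read 156 and 127 in controls, under the 40th percentile, and 234 and 302 in mutants, above it, and 1416123_at, between 73.8 and 96.0, was under it on all 4 and gave no measure of change. At E14.5 the mutant arrays were above the control arrays without overlap on 4 of the 7, by 1.17-fold to 1.30-fold. The limma genotype effect of 1430127_a_at, mutant minus control, was 0.62 ± 0.16 with unadjusted p = 0.0109 and adjusted p = 1.00, and that of 1434745_at was 0.40 ± 0.13 with unadjusted p = 0.0262. After quantile normalization 1430127_a_at met the size criteria as higher in mutants at E18.5, and 1416124_at did so without array 1 of either E18.5 pool.

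Some cell markers also differed between the genotypes at E18.5. The summed signal of the 8 nephron progenitor markers was 4114 and 4312 in E18.5 controls and 6389 and 7372 in E18.5 mutants. That of the 8 stroma markers was 20330 and 20192 against 24768 and 26572. At E14.5 the stroma sum was 15357 and 15532 in controls and 18441 and 19344 in mutants. Between stages it thus rose in both genotypes, while Ccnd2 fell. None of these markers was under the 40th percentile on all arrays. Their part in the Ccnd2 difference was not tested, and neither was that of the proximal tubule markers, which were high in E18.5 controls.

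Cdkn1a went the other way at E18.5, higher in controls than in mutants by 1.31-fold on 1424638_at (range 1.19 to 1.46) and 1.40-fold on 1421679_a_at (range 1.25 to 1.58), with no overlap. At E14.5 the genotypes overlapped on 1424638_at, at 0.975-fold, and 1421679_a_at was under the 40th percentile. Cdkn1c was 1.16-fold higher in mutants at E18.5 (range 1.13 to 1.19), and at E14.5 its ratio of control over mutant was 1.01 (range 0.913 to 1.12). Over all 23 probe sets at E18.5, 2 were higher in controls without overlap, beside 17.6% of all, and 11 were higher in mutants, beside 24.5%, of which 7 were Ccnd2, 1416123_at under the 40th percentile included. At E14.5 these counts were 3 and 8, beside 19.7% and 17.4%. Among them Ccnd1 on 1417419_at was 1.66-fold higher in controls (range 1.60 to 1.73), while Ccnd3 on 1415907_at was 1.54-fold higher in mutants (range 1.48 to 1.60) and Ccne1 on 1416492_at 1.35-fold (range 1.18 to 1.55). At E18.5 Ccnd1 on 1417419_at and Ccnd3 on 1415907_at overlapped between genotypes.

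**Figure D3:**
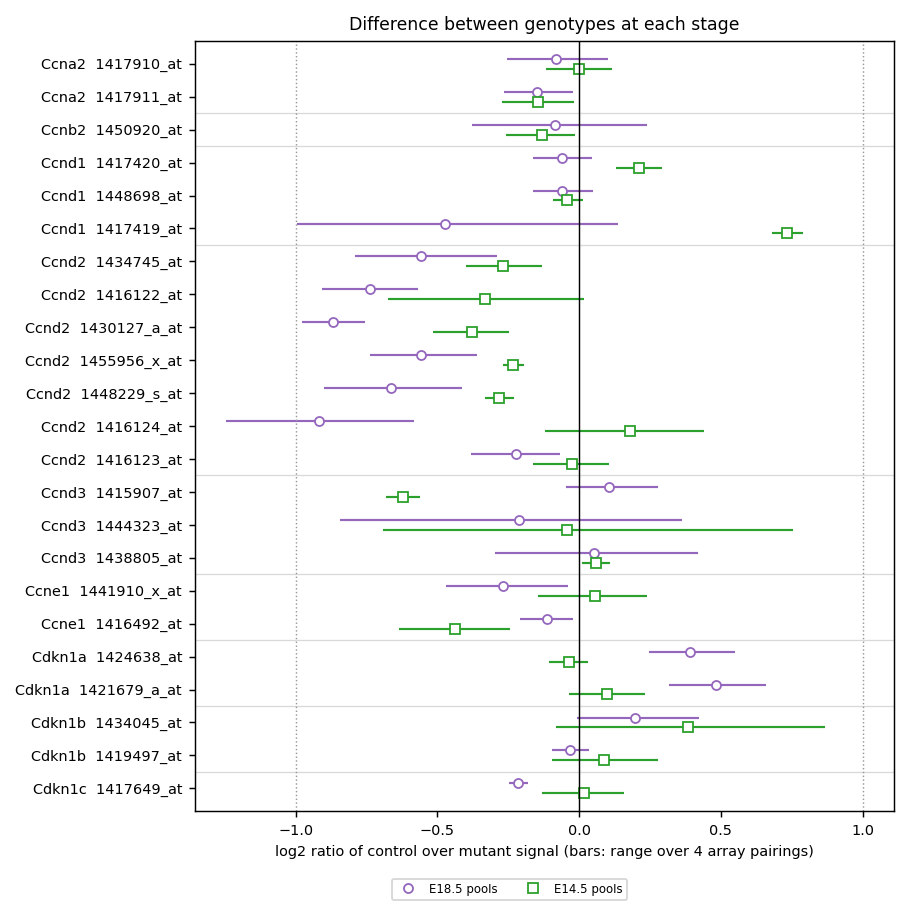
Log2 ratio of control over mutant signal at E18.5 (circles) and E14.5 (squares), with bars for the range over the 4 array pairings and dotted lines at a 2-fold difference. The Ccnd2 circles lie left of 0, of which 1416123_at was under the 40th percentile on all E18.5 arrays, and both Cdkn1a circles right of it, and no probe set met the size criteria.

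Other genes of the cell cycle were read by the brightest probe set of each gene. With limma, 4.02% of all genes tested this way were lower at E18.5 and 3.62% were higher. Of 12 division markers, 9 were lower and 0 higher, with a median log2 ratio of -0.89 in controls and -0.90 in mutants. Rrm2, a subunit of ribonucleotide reductase, was 2.49-fold lower in controls and 2.45-fold lower in mutants (adjusted p = 0.0179), and Mcm5, of the replicative helicase, 2.14-fold and 1.90-fold (adjusted p = 0.0204). Pcna, the DNA polymerase clamp, was 1.37-fold and 1.46-fold lower with adjusted p = 0.0660.

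Of 13 other cyclins, CDKs and CDK subunits, 4 were lower and 0 higher, namely Ccne2, Cks1b, Cdk1 and Cdk6, the last pair named after their values were seen. Ccne2, the second cyclin E, was 2.50-fold lower in controls and 2.76-fold lower in mutants (adjusted p = 0.0175). Cdk4, a partner of the D cyclins, was within 1.11-fold between stages in both genotypes. Of the 8 activators and inhibitory kinases of Cdk1, 4 were lower and 1 higher: the phosphatase Cdc25a and the mitotic kinase Plk1 were lower, as were Aurka and Bora, also named after their values were seen, and the phosphatase Cdc25b was higher, by 2.05-fold in controls and 1.73-fold in mutants (adjusted p = 0.0260).

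Of 14 genes that turn over cyclins and CDK inhibitors, 4 were lower and 0 higher. Skp2, which marks p27 for degradation, was 2.78-fold lower in controls and 2.29-fold lower in mutants (adjusted p = 0.0181), and Fbxo5, an inhibitor of the anaphase-promoting complex, 2.46-fold and 2.01-fold (adjusted p = 0.0201). The other two, Cdc20 and Dtl, were named after their values were seen. None of the 4 tested INK4 and related inhibitors or the 19 pocket proteins and E2F factors passed limma in either direction. Nor did any of the 12 tested genes of the p53 list, in which Trp53, the gene of p53 itself, and Bax were not measured. At an unadjusted p under 0.05 there were 0, 6 and 4 in these lists, in that order. The share of all probe sets under that unadjusted p was not computed, so nothing is read from these counts. Rb1, the retinoblastoma protein gene that D cyclin complexes phosphorylate, read 228 and 318 in E14.5 controls, 231 and 222 in E14.5 mutants, 726 and 772 in E18.5 controls, and 290.5 and 369.9 in E18.5 mutants. It met the size criteria between stages in controls, at 2.74-fold, and between genotypes at E18.5, at 2.27-fold higher in controls, while its common stage effect of 1.00 ± 0.24 had adjusted p = 0.0727.

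**Figure D4:**
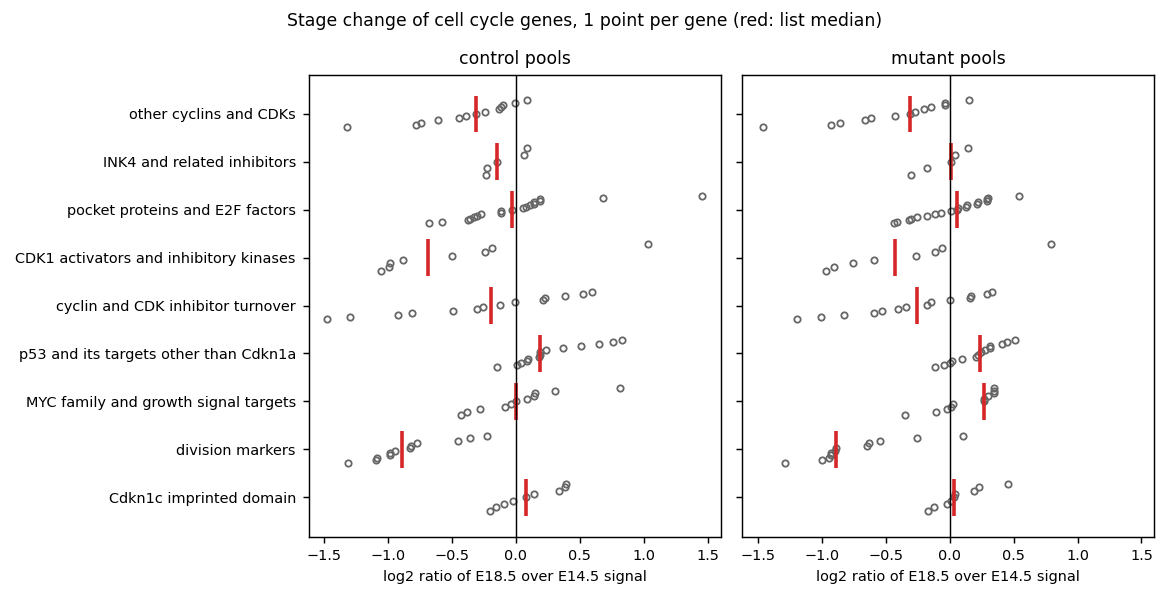
Log2 E18.5/E14.5 signal ratio for the genes of 9 cell cycle and growth lists, 1 point per gene read by its brightest probe set, with control pools on the left and mutant pools on the right. Red bars are list medians, and the division markers have the lowest, at -0.89 in controls and -0.90 in mutants.

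The genes nearest to a cyclin or inhibitor in profile were found by the root mean square difference of centred log2 signal over the 4 pool means, among 13441 genes and for members whose brightest probe set spanned at least 1 log2 unit. For Ccnd2 these were Actg2, Cdh4 and Pgm2l1, at 0.049, 0.058 and 0.069. For Ccnd3 they were Abhd17a, Flii and Crtap, at 0.013, 0.045 and 0.046, and for Cdkn1a Thbs1, Epas1 and Bsg, at 0.019, 0.056 and 0.074. With 4 values per profile this describes likeness only. Thbs1, the secreted protein thrombospondin 1, had pool means of 222 in E14.5 controls, 221 in E14.5 mutants, 581 in E18.5 controls and 441 in E18.5 mutants, beside 272, 279, 735 and 560.3 for Cdkn1a.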

How the data were processed

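Whole-kidney RNA of 4 pools was hybridised to 8 Affymetrix Mouse Genome 430 2.0 arrays. The deposited values are linear signal intensities per probe set. The paper describes normalization between arrays by the invariant-set method in dChip, which would remove a change shared by most genes. The deposited array medians lie above the median intensities that the paper states after normalization. Whether the deposited values are the normalized ones was therefore not settled here. The 45101 probe sets were named from the platform table: 34958 had 1 gene, 932 several and 9211 none. Detection calls were not used here, and the 40th percentile of each array stood in for them.

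The members and gene lists were chosen with earlier results of these data known. Named genes were all members, Lhx1, the brightest and most changed genes of each list by stage in controls, and nearest profiles. Ratios are of arithmetic duplicate means, with ranges over 4 array pairings. limma 3.58.1 (R 4.3.3) fitted additive stage and genotype terms to pool means of log2(signal + 1) for the 27061 probe sets with mean signal at or above the 40th percentile, with 3.91 prior degrees of freedom and an adjusted p threshold of 0.05. Fold changes in that fit are on the log2(signal + 1) scale. Other steps used Python 3.11.15, numpy 2.4.6, pandas 2.3.3 and matplotlib 3.10.9, and were tested on simulated data. Replication is limited to 1 pool per stage and genotype, and the duplicate arrays show technical error only. Alternatives changed the signal minimum, normalization, averaging, offset, duplicate criterion, probe set choice and arrays used.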

Additional observations from a re-analysis of the deposited data

How the results depend on the processing

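Of the control stage counts, the 2 higher became 1 after quantile normalization, with 50 units added and with the replicate block (array 1 against 1 and 2 against 2), and 1 to 2 without single arrays. The 7 lower became 1 with the brightest probe set of each gene and 6 to 8 without single arrays. Of the mutant stage counts, the 1 higher became 0 after quantile normalization, with equal array medians, geometric means, 50 units added and the replicate block, and 0 to 1 without single arrays. The 5 lower became 0 with the brightest probe sets and 4 to 8 without single arrays, 8 without E18.5 mutant array 2. The 0 higher in E18.5 mutants became 1 after quantile normalization and 0 to 1 without single arrays. The limma counts were 3 lower with the brightest probe sets (7 to 11 without single arrays), and 4 higher with 8 arrays and the pool as random block, with or without the array number as replicate block (1 to 3 without single arrays, 3 without E18.5 mutant array 1 and 2 without E18.5 control array 1). In the fits over 8 arrays duplicates count almost as replicates. Of all 27061 probe sets tested, these fits called 4623 higher at E18.5 without the replicate block and 3960 with it. The 4 higher are therefore not read as a result about the members. The median stage change in controls minus that in mutants, -0.19 log2, was -0.27 after quantile normalization, -0.12 with equal array medians and -0.24 to -0.081 without single arrays. Of single probe set values, 21 of the ratios moved by more than the duplicate spread, 4 limma calls were lost (Ccna2, named in the report), 22 were gained, and no called direction reversed. Array numbers do not pair the samples: correlations of array differences between pools ran from -0.45 to 0.42. Leaving out probe sets 1.5-fold apart on the E18.5 mutant arrays, chosen after seeing the data, changed no count by over 1.5 times. No member passed limma for genotype in any of these fits.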

Other observations

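None of the 11 MYC family and growth signal genes passed limma at an adjusted p under 0.05 for stage in either direction. At an unadjusted p under 0.05 there were 3, and the share of all probe sets under it was not computed. Id1, an inhibitor of differentiation factors, was 1.75-fold higher at E18.5 in controls and 1.27-fold higher in mutants (adjusted p = 0.0874), and Egr1, an immediate early gene, was 0.740 times its E14.5 level in controls and 1.27 times in mutants. At E18.5 Egr1 read 358 and 379 in controls against 554 and 679 in mutants, 1.67-fold higher in mutants, and the arrays did not overlap.

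In and beside the imprinted domain that holds Cdkn1c, none of the 9 measured genes passed limma for stage. Of these, 1 had an unadjusted p under 0.05, and the share of all probe sets under it was not computed. Igf2, the growth factor of the neighbouring domain, read 4871 and 3770.3 in E14.5 controls, 5715 and 6303 in E14.5 mutants, 5342 and 5592 in E18.5 controls, and 6684 and 7038 in E18.5 mutants, which was 1.25-fold higher in mutants at E18.5 and 1.39-fold at E14.5. Its limma genotype effect, mutant minus control, was 0.41 ± 0.12 with unadjusted p = 0.0185, and no genotype effect passed adjustment.

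Among the p53 targets other than Cdkn1a, Gadd45a, a stress-induced growth arrest gene, read 222 and 245 in E18.5 controls and 99.7 and 136 in E18.5 mutants. Both mutant arrays and all 4 E14.5 arrays were under the 40th percentile, and its mean signal kept it out of limma. It did not meet the criteria of size.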
